A study of Mus musculus with 14 samples.

Results

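A set of 112 nuclei from mouse colon muscle, out of 4533 that passed the quality limits in 2 libraries, carried RNA of the genes Colec10, Nek10, Actn2, Pln or Shisa6 on top of the common smooth muscle genes. They were chosen from their own counts of unique molecular identifiers (UMIs, the number of distinct RNA molecules read). A nucleus needed at least 300 genes and at most 5% mitochondrial UMIs, and at least 4 UMIs of Myh11, Mylk, Acta2 and Actg2 together. It was to have no UMI of Kit, Pdgfra or Notch3 and at most 1 of Grin3a and Hs3st4 together. Finally, the summed UMIs of Colec10, Nek10, Actn2, Pln and Shisa6 (called A) had to be at least 1 and larger than the sum of Fgf7, Fgf10, Fn1, Postn, Igfbp2 and Aspn (called B). These are called the Colec10/Nek10/Actn2/Pln nuclei below. The levels of these 20 genes in them follow from the rule and are given as descriptions.

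In the muscle layers of the gut wall, smooth muscle cells contract when calcium enters the cytoplasm and myosin pulls on actin filaments. Part of that calcium is kept in the sarcoplasmic reticulum, where calsequestrin (Casq2) holds it, the pump SERCA brings it back and phospholamban (Pln) restrains the pump. Alpha-actinin 2 (Actn2) crosslinks actin filaments, Nek10 is a kinase of the NIMA family, Colec10 is a collectin that binds sugars, and Shisa6 is known as a membrane partner of AMPA-type glutamate receptors. Carmn is a long noncoding RNA of smooth muscle, next to the genes of the microRNAs miR-143 and miR-145.

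Both libraries of nuclei came from colon of C57BL/6 mice, 1 with the genotype label "Carmn iKO" (called KO) and 1 with "WT mTmG" (called WT). The same labels cover 12 bulk RNA-seq libraries of C57BL/6 muscularis, 3 per genotype from colon and 3 per genotype from jejunum. The labels do not say how Carmn was deleted, in which cells, at what age, or whether tissue of several animals was pooled, and nothing says that replicates came from separate animals. P-values below therefore measure the spread between these libraries, which may be technical. With 1 library per genotype, differences between KO and WT nuclei have no replicate check. Their intervals are exact 95% intervals that cover counting error only.

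The WT library kept 2837 nuclei with a median of 1579 UMIs, and the KO library kept 1696 with a median of 1857. The libraries shared 4 barcodes among kept nuclei, 1 of them in a Colec10/Nek10/Actn2/Pln nucleus. In bulk, total counts ran from 24254905 to 44315104. Levels are given as CPM, counts per 1000000: for nuclei, the UMIs of a gene per 1000000 UMIs of the summed nuclei of a class, and for bulk, reads scaled by TMM library sizes. These levels are not per length and are compared between samples, not between genes. The whole Carmn transcript was higher in the bulk libraries labelled KO than in those labelled WT, with 494 ± 209 CPM (SD, n = 3) against 258 ± 90.2 in colon and 908 ± 89.3 against 257 ± 62.0 in jejunum (edgeR quasi-likelihood test, adjusted p = 0.234 and 0.0646). In summed smooth muscle nuclei it was lower in KO, at 505 CPM against 1476 in WT, a ratio of 0.34 (0.32 to 0.37). Because the deleted part of Carmn is not stated, a level summed over the gene does not check the labels, and bulk groups are named below by their labels.

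The WT library held 108 Colec10/Nek10/Actn2/Pln nuclei, 3.81% of its kept nuclei (exact binomial interval 3.13 to 4.58%). The KO library held 4, or 0.236% (0.0643 to 0.603%). Among nuclei that passed the smooth muscle limits and had no UMI of Kit, Pdgfra or Notch3, they made up 11.2% of 961 in WT and 0.844% of 474 in KO. In WT they had a median of 2515 UMIs, against 1927 in the other smooth muscle nuclei and 1402 in nuclei outside that gate. Thinned to 1000 UMIs each, 90 of 1998 WT nuclei (4.50%) and 5 of 1224 KO nuclei (0.408%) met the rule.

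Both sides of the rule differed between the libraries. After the limit on Grin3a and Hs3st4, 906 WT and 461 KO smooth muscle nuclei remained. Of these, 137 in WT (15.1%) and 23 in KO (4.99%) had at least 4 UMIs of the A genes, whatever their B. B averaged 5.56 UMIs per nucleus over all gated smooth muscle nuclei in WT and 28.2 in KO, and it was 0 in 119 WT nuclei (13.1%) and 22 KO nuclei (4.77%). Among those with a B of 0, 27 WT nuclei and 1 KO nucleus had an A gene. Without any condition on B, 443 nuclei (15.6% of kept nuclei) remained in WT and 138 (8.14%) in KO. With Fn1 and Postn left out of B, the shares were 11.4% and 2.83%. The low KO share thus came with fewer A transcripts and with more B transcripts.

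**Figure D1:**
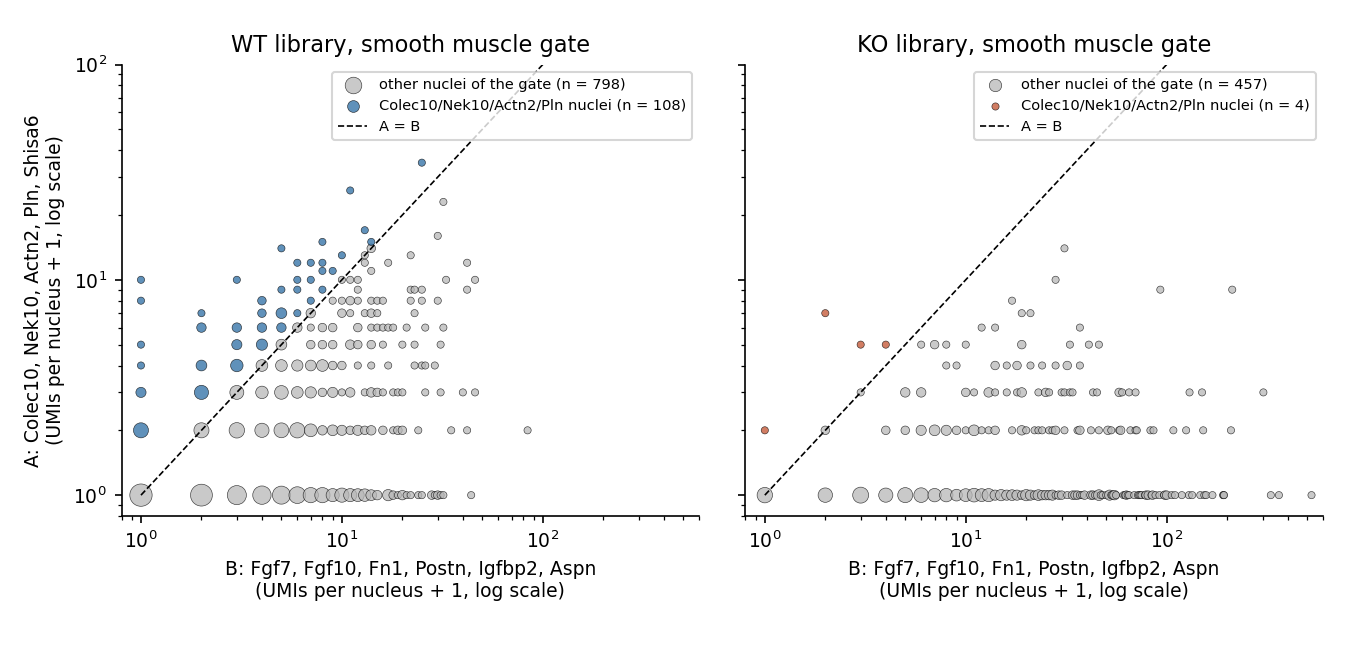
Each circle is a combination of A and B (UMIs per nucleus plus 1, both axes logarithmic) in gated smooth muscle nuclei with at most 1 UMI of Grin3a and Hs3st4, and its area grows with the number of nuclei. The dashed line marks equal A and B; 108 WT and 4 KO nuclei, coloured, lie above it with A of at least 1.

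Fn1 and Postn were also found more often in KO outside smooth muscle. In nuclei outside the smooth muscle gate, Fn1 was found in 8.16% of WT and 19.4% of KO nuclei, and Postn in 8.74% and 18.2%. In nuclei with at least 4 UMIs of epithelial markers (254 in WT, 111 in KO; median 1458 and 2439 UMIs), Fn1 was found in 4.33% and 9.91%, and Postn in 2.76% and 12.6%. The 5 A genes reached at most 3.15% of those WT nuclei (Nek10). The part of free Fn1 and Postn RNA, and of the greater depth per KO nucleus, in the KO share was not tested.

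Many of the nuclei lay near the limit. In WT, 56 of the 108 had an A only 1 UMI above B, and 19 had an A of 1 with a B of 0. Just outside, 55 WT nuclei had an A equal to B and 41 had a B larger by 1; in KO these were 3 nuclei and 1 nucleus. The median A was 4 UMIs and the highest 34. Only 1 WT nucleus had all 5 A genes, 8 had 4, 23 had 3, 36 had 2 and 40 had a single one.

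The gate itself asks for Myh11, Mylk, Acta2 and Actg2, so their levels follow from the choice. Myh11, smooth muscle myosin heavy chain, stood at 10857 CPM in the WT Colec10/Nek10/Actn2/Pln nuclei, 9387 in other smooth muscle nuclei and 1244 outside the gate. Actg2, the enteric actin, stood at 3759 against 2927 in other smooth muscle nuclei. All 10 smooth muscle markers of the list, which holds these 4 genes, were present, and together they gave 24800 CPM against 22518 in the other smooth muscle nuclei.

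Of the A genes, Nek10 was found in 50.9% of the 108 WT nuclei, Actn2 in 42.6%, Colec10 in 40.7%, Pln in 37.0% and Shisa6 in 30.6%. Colec10 stood at 272 CPM, against 72.9 in other WT smooth muscle nuclei and 11.5 outside the gate. For Nek10 the 3 levels were 500, 126 and 20.6, and for Actn2 307, 131 and 20.8. Pln stood at 152, 47.1 and 6.68, and Shisa6 at 182, 23.7 and 3.97. All 5 genes were thus also present in the other smooth muscle nuclei, at levels above those outside the gate. Of the matrix genes in B, Fn1 (fibronectin) stood at 369 against 1008 in other smooth muscle, and Postn (periostin) at 251 against 585.

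**Figure D2:**
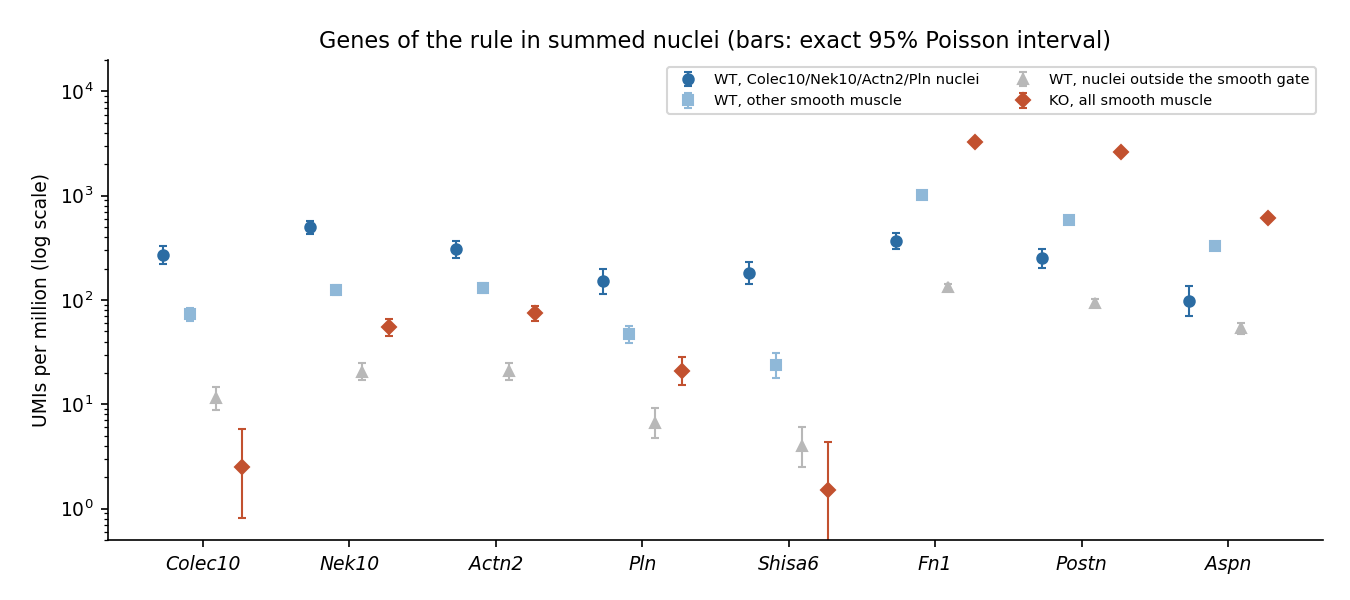
CPM (log axis) of 5 A genes and 3 B genes in summed nuclei; bars are exact 95% Poisson intervals. The blue circles and squares separate the WT nuclei as the rule demands, and the KO smooth muscle nuclei (red) lie below the WT squares for the A genes and above them for Fn1, Postn and Aspn; the lower end of the Shisa6 bar in KO lies off the axis.

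Members also carried RNA of genes listed as markers of other cells. One WT nucleus with 42128 UMIs held 11.2% of all UMIs of the 108 nuclei, 188 of their 225 UMIs of enteric neuron markers, and lay in cluster 14 of a clustering made without the rule genes. Markers of Pdgfra fibroblasts, a list with collagen genes, reached at least 4 UMIs in 54 of the 108 nuclei. They stood at 1451 CPM in the members, 1701 in other smooth muscle nuclei and 1741 outside the gate. Markers of vascular mural cells reached at least 4 UMIs in 7 nuclei and those of interstitial cells of Cajal in 4. Those of blood endothelium and of enteric glia did so in 3 nuclei each. Markers of adipocytes were at 0, and 5 of 7 macrophage markers were at 0. Kit, Pdgfra and Notch3 were at 0 by the rule. Scrublet, a doublet caller, marked 3 WT and 2 KO nuclei of either library, none of them a Colec10/Nek10/Actn2/Pln nucleus. At 0.106% and 0.118% of kept nuclei it did not work here, so doublets may remain in these counts.

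The members did not form a cluster of their own. Of the 21 clusters, cluster 1, led by Gm17029, Gm11946 and Kbtbd12, held 87 of the 108 WT nuclei and 3 of the 4 KO nuclei. It also held 321 WT nuclei with B above A. In all, cluster 1 took 475 WT nuclei (16.7% of the library) and 116 KO nuclei (6.84%). Mean A in it was 2.46 UMIs in WT and 1.25 in KO, and mean B 6.15 and 17.2.

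Compared with the other WT smooth muscle nuclei, 137 of 6621 genes with at least 50 UMIs (2.07%) were at least 2-fold higher and 464 (7.01%) at least 2-fold lower in the Colec10/Nek10/Actn2/Pln nuclei. Highest outside the rule were Rbfox1, a splicing factor of neurons and muscle (5.23-fold, 4.72 to 5.79), the protocadherin Pcdh11x (5.04-fold, 3.70 to 6.84), the synaptic scaffold Dlgap1 (4.27-fold) and the kinesin adaptor Sybu (3.26-fold). A single nucleus, however, held 69.5% of the Rbfox1 UMIs, 86.9% of those of Dlgap1 and 48.9% of those of Sybu. Without the nucleus of 42128 UMIs, 68 of 6544 genes were at least 2-fold higher, Rbfox1 came to 1.80-fold, Sybu to 1.88-fold and Dlgap1 to 0.63. The same step took Map2 from 2.88-fold to 0.94, Grm7 from 2.80-fold to 1.18 and Ncam2 from 2.78-fold to 0.45.

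Pcdh11x had no UMI in that nucleus, so leaving it out could not lower its ratio, which came to 5.68-fold (4.17 to 7.70). Another nucleus held 21.8% of the 78 Pcdh11x UMIs, and 26.2% of those within cluster 1. A fit without that nucleus was not made. Pcdh11x was found in 17.6% of the WT members. Within cluster 1 it stood at 247 CPM in members and 72.7 in other smooth muscle nuclei, a ratio of 3.41 (2.41 to 4.81). Of the 12 highest genes, Tafa2, a secreted protein of the TAFA family (1.70, 1.22 to 2.35), and Ptdss1, which makes phosphatidylserine (2.79, 1.30 to 5.80), were the others whose within-cluster interval lay above 1. Within cluster 1, 19 of 3938 genes (0.482%) were at least 2-fold higher and 104 (2.64%) at least 2-fold lower. Those named next were picked after their values were seen. After Pcdh11x came Mipol1 (2.78), Kctd1 (2.65), the complex I subunit Ndufs3 (2.58) and Aff2 (2.56). Lowest were Fmo2 (0.092), the matrix proteoglycan Dcn (0.15), Dnajc8 (0.16) and Gpm6a (0.16). The rule asks for a low B, a sum that holds matrix genes.

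Genes were ranked against all other WT smooth muscle nuclei with a sum of 0 set to 3 UMIs, so genes without a UMI could rank higher. The 6 lowest in this ranking were Nos1 (neuronal nitric oxide synthase), the receptor Ntrk3, Id4, Pcsk5, Eva1a and Sorcs2. Each had 1 UMI in the 108 nuclei. Nos1 stood at 94.2 CPM in other smooth muscle nuclei but was found in only 1.88% of them. Id4, an inhibitor of helix-loop-helix factors, was found in 10.1% of them. Within cluster 1, Eva1a alone of these genes had an interval below 1 (ratio 0, 0 to 0.52). The intervals of the others held 1, such as those of Nos1 (3.98, 0.051 to 313) and Id4 (0.36, 0.008 to 2.49).

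Of 14 measured contractile genes outside the rule, none was at least 2-fold higher or lower than in other smooth muscle. Their ratios ran from 0.55 to 1.30, with 2 intervals above 1 and 5 below 1, and the median was 0.97, beside 0.94 over all genes tested. Synpo2, an actin-bundling protein, stood at 5396 against 5231 CPM. Of 15 genes of the sarcoplasmic reticulum, only Casq2 passed 2-fold, at 2.58 (1.32 to 4.79) on 15 UMIs, and the median was 1.01. Slc8a1, the sodium-calcium exchanger, stood at 1.403 (1.33 to 1.47) and the ryanodine receptor Ryr3 at 1.21 (1.12 to 1.31). Of 20 genes of dense plaques, desmin and dystrophin, none passed 2-fold; Dmd stood at 1.06 and Flna at 0.79.

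Of 22 matrix genes outside the rule, 9 were at least 2-fold lower (7.01% over all genes tested) and none at least 2-fold higher. The other 13 did not pass 2-fold, and the median ratio was 0.59. Col12a1 stood at 0.41 (0.29 to 0.55), Sparc at 0.35 (0.16 to 0.66) and Eln, elastin, at 0.28 (0.12 to 0.56), whereas Col3a1 stood at 0.99. The rule asks for a low B, which holds matrix and growth factor genes, and the part of that choice here was not tested. In WT nuclei grouped by A alone (0, 1, 2 to 3, 4 or more), Fn1 stood at 921, 1093, 912 and 1010 CPM. Postn stood at 723, 561, 532 and 443 in those classes. Of 14 growth factor genes, 5 were at least 2-fold lower and 9 did not pass 2-fold, with a median of 0.55. Of 22 ion channels, 5 were at least 2-fold lower and 2 at least 2-fold higher (7.01% and 2.07% over all genes tested). The higher ones were Kcnh7 with 87.9% and Trpm3 with 78.7% of their UMIs in 1 nucleus. Kcnab1 was the lowest at 0.10 (0.03 to 0.23), on 5 UMIs, and the calcium channel Cacna1c stood at 0.999 (0.95 to 1.05). Kcnn2, a calcium-activated potassium channel, stood at 1.75 (1.52 to 2.01).

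Some genes outside the rule varied with A. When all 906 WT smooth muscle nuclei were grouped by A alone, Grm8, a metabotropic glutamate receptor, stood at 61.5 CPM with an A of 0, 165 with 1, 301 with 2 to 3 and 319 with 4 or more. Kbtbd12, a Kelch and BTB domain protein, gave 31.3, 58.9, 85.2 and 94.9 over the same classes. Casq2 gave 10.8, 18.8, 20.8 and 32.1 on at most 25 UMIs a class. Median depth also differed, from 1483 UMIs at an A of 0 to 4638 at 4 or more. Thinned to 1000 UMIs, Grm8 was found in 23.4% of 94 members and 8.10% of 691 other smooth muscle nuclei. It was found in 1.65% of thinned WT nuclei outside the gate. Carmn stood at 1493, 1397, 1543 and 1518 CPM in the 4 WT classes, with no order along A.

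In KO the same classes were lower for Grm8, at 11.8, 15.5, 0 and 221 CPM; the 0 stands for 50 nuclei, and 3 UMIs there would be 11.4. Only 23 KO nuclei had an A of 4 or more, and 27 Grm8 UMIs in 13.04% of them gave the last value. Carmn stood in KO at 392, 633, 817 and 605, below every WT class. Myh11 was also below WT in each class.

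**Figure D3:**
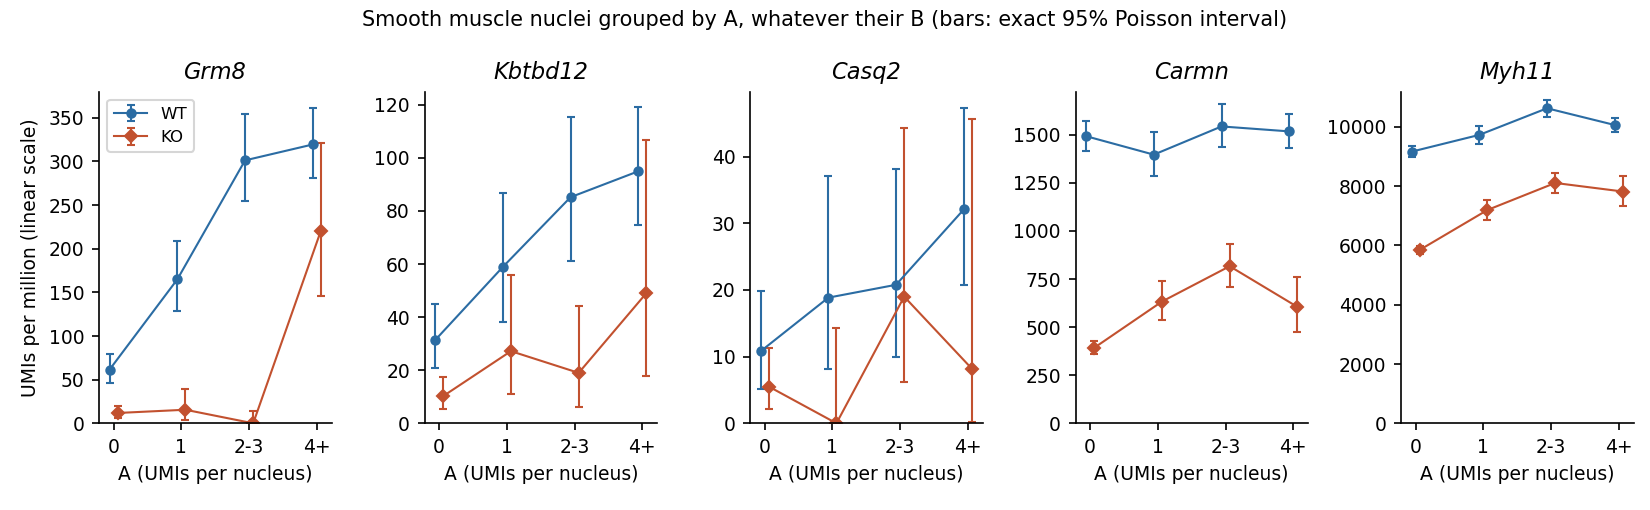
CPM (linear axes) of Grm8, Kbtbd12, Casq2, Carmn and Myh11 in gated smooth muscle nuclei grouped by A (0, 1, 2-3, 4 or more UMIs), WT in blue and KO in red; bars are exact 95% Poisson intervals. Grm8 goes from 61.5 to 319 in WT, Carmn stays between 1397 and 1543 in WT, and all KO points are below those of WT.

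The 4 KO nuclei were a narrow base for KO against WT. They had 2312, 1229, 3665 and 2334 UMIs and an A of 1, 4, 6 and 4. No UMI of Colec10, Pln or Shisa6 was among them: Nek10 gave 1, 1, 6 and 0 UMIs and Actn2 gave 0, 3, 0 and 4. With none seen, the upper limits for Colec10, Pln and Shisa6 were 1.45, 2.62 and 2.19 times the level in the WT members. The label of the set therefore holds in KO by Nek10 and Actn2 alone. The nucleus with 6 UMIs of Nek10 lay in cluster 12 and had no Carmn UMI, while the others, of cluster 1, had 8, 2 and 2.

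Over these sums, with 9535 KO UMIs, 200 of 1597 genes (12.5%) were at least 2-fold higher and 537 (33.6%) at least 2-fold lower in KO. The interval of counting error lay above 1 for only 108 genes and below 1 for only 72. Most of the genes counted as 2-fold lower, and part of those counted as 2-fold higher, thus lay within counting error. The highest were Hpse2, which inhibits heparanase (62 KO UMIs, 17.6-fold), Airn (9.47-fold), Neat1, the RNA scaffold of paraspeckles (8.44-fold, 6.13 to 11.4), and Slit3 (6.61-fold). All 62 KO UMIs of Hpse2 and all 17 of Slit3 lay in 1 of the 4 nuclei. Over the nuclei of cluster 1, KO was lower for Hpse2, at a ratio of 0.06 (0.02 to 0.13), and for Slit3, at 0.67 (0.47 to 0.95). Airn stood there at 1.22 and Neat1 at 4.26. Over all smooth muscle nuclei, in contrast, KO was higher for Hpse2, at 2.97 (2.79 to 3.17), and for Slit3, at 4.46 (4.10 to 4.86). Airn stood at 1.78 and Neat1 at 2.97 over all of them. Ranked with a sum of 0 set to 3 UMIs, the lowest were Pdzrn4, Ppm1e, Nxn and Nrg3, with 1 KO UMI each. Rbfox1 and Fam155a had 0 KO UMIs against 678 and 674 in WT, with upper limits of 0.21 and 0.22. A single WT nucleus held 69.5% and 51.0% of those WT UMIs. Over all smooth muscle nuclei, Ppm1e stood at 0.49, Nxn at 0.92 and Nrg3 at 1.11. For Pdzrn4, a PDZ and RING finger protein, the ratio was 0.10 (0.003 to 0.57), against 387 UMIs in WT. Within the lists, Myh11 stood at 0.97 (0.78 to 1.18) and Carmn at 0.79 (0.40 to 1.38). Of the 12 KO UMIs of Carmn, 8 lay in 1 nucleus. The interval leaves out the spread between the 4 nuclei, so it cannot be set against the ratio of 0.34 over all smooth muscle nuclei. Itga5, a fibronectin receptor subunit, stood at 3.90 (2.02 to 6.90).

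All smooth muscle nuclei, whose choice used neither A nor B, gave larger counts. The A and B genes themselves were chosen with earlier results of these data known, so their ratios are descriptions. There, 607 of 8709 genes (6.97%) were at least 2-fold higher and 232 (2.66%) at least 2-fold lower in KO. Colec10 had 280 UMIs in 961 WT nuclei and 5 in 474 KO nuclei, 99.4 against 2.51 CPM, a ratio of 0.03 (0.01 to 0.06). Shisa6 came to 126 and 3 UMIs, 0.03 (0.01 to 0.10). Nek10 stood at 0.31 (0.25 to 0.38), Pln at 0.34 (0.24 to 0.49) and Actn2 at 0.48 (0.40 to 0.58). All 5 intervals lay below 1, and those of Colec10 and Shisa6 lay below those of the other A genes.

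Of the smooth muscle genes of the rule, Acta2 and Actg2 had ratios of 1.003 (0.96 to 1.05) and 1.01 (0.98 to 1.04), whereas Myh11 stood at 0.69 and Mylk, the kinase that starts contraction, at 0.61. The B genes Fn1 and Postn stood at 3.52 (3.36 to 3.68) and 4.83 (4.56 to 5.12). Fgf10 was the B gene below 1, at 0.72 (0.55 to 0.92). Casq2 stood at 0.35 (0.17 to 0.64), Kcnn2 at 0.16 (0.13 to 0.19), and Pdzrn4 at 0.11 (0.09 to 0.12). Of 24 matrix genes outside the rule, 12 were at least 2-fold higher in KO and 1 lower, with a median of 2.09 beside 1.06 over all genes tested. Of 14 glucocorticoid-response and metallothionein genes, 8 were at least 2-fold higher (6.97% over all genes tested) and none lower, with a median of 2.48.

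Within cluster 1, the ratio for Colec10 was 0.07 (0.02 to 0.17) and for Shisa6 0.13 (0.03 to 0.40). Nek10 stood at 0.58 (0.43 to 0.78). The intervals of Pln (0.71, 0.42 to 1.13) and Actn2 (0.81, 0.61 to 1.07) held 1. Carmn stood there at 0.42 (0.36 to 0.48), Fn1 at 3.24 and Postn at 2.34. Fgf10, below 1 over the whole gate, was above 1 in cluster 1, at 2.67 (1.51 to 4.62) on 23 KO UMIs. So the KO levels of Pln and Actn2 differed less from WT within cluster 1 than over the whole gate, while Colec10 and Shisa6 stayed low in both.

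**Figure D4:**
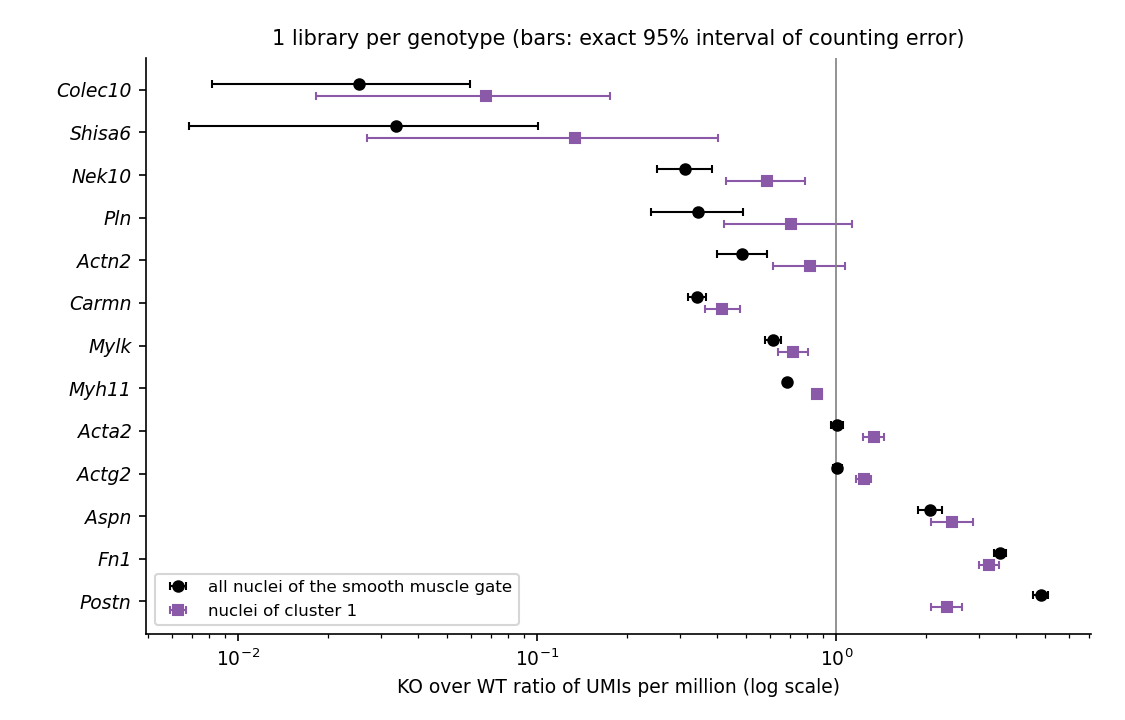
KO over WT ratio of CPM (log axis) in all gated smooth muscle nuclei (black) and in cluster 1 (purple); bars are exact 95% intervals of counting error from 1 library per genotype. Colec10 and Shisa6 lie farthest to the left, Acta2 and Actg2 near 1 over the gate, and Fn1 and Postn to the right.

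The bulk libraries, which the rule did not use, allowed a replicated test, with 20886 genes in edgeR's quasi-likelihood model. The genes of the rule were, however, chosen with earlier results of these data known. Bulk tissue cannot tell fewer cells of a type from less RNA per cell. In colon, 81 genes (0.388%) passed at an adjusted p under 0.05 in the libraries labelled KO, of which 24 (0.115%) rose and 57 (0.273%) fell. Colec10 and Pln were 2 of the 5 A genes among those that fell; the median log2 fold change of the 5 was -1.56, beside 0.0043 over all genes.

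Colec10 stood at 14.9, 12.9 and 10.4 CPM in the 3 colon libraries labelled WT and at 1.72, 0.867 and 0.810 in those labelled KO. The groups did not overlap, as for 2166 genes (10.4%) in that direction. It fell by 3.47 on the log2 scale (SE 0.34), at an edgeR adjusted p of 0.0031. Pln stood at 41.3, 38.4 and 41.5 CPM in WT and at 10.0, 2.74 and 3.11 in KO, with KO library m1 above the others of its group. It fell by 2.93 on the log2 scale (SE 0.43, edgeR adjusted p = 0.024). Casq2, which is not part of the rule and was named after its values were seen, stood at 29.6, 27.6 and 31.6 CPM in WT and at 2.93, 1.63 and 3.47 in KO. It fell by 3.46 (SE 0.28), at an edgeR adjusted p of 0.0011.

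These calls rested on the spread shared by all 12 libraries. Fitted on the 6 colon libraries alone, no gene of the genome passed (2270 had an unadjusted p under 0.05), and the adjusted p of Casq2, Colec10 and Pln was 0.109, 0.117 and 0.166 with log2 fold changes of -3.44, -3.46 and -2.91. Casq2 and Colec10 passed without each of the 12 libraries in turn. By the same edgeR test, Pln did not pass without the KO colon library t6 (adjusted p = 0.0962) or the WT colon libraries t1 (0.0889) or t6 (0.0655).

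Actn2 and Shisa6 had lower means in KO colon but did not pass. Actn2 stood at 13.2, 4.12 and 19.4 CPM in WT and at 6.82, 2.22 and 4.46 in KO, with overlapping groups (adjusted p = 0.340, edgeR). Shisa6 stood near 1 CPM in WT (1.03 ± 0.24, SD, n = 3) and at 0.35 ± 0.20 in KO (adjusted p = 0.361, edgeR). Nek10 went the other way, with 1.64, 1.24 and 1.01 CPM in WT and 3.39, 2.53 and 1.32 in KO (adjusted p = 0.417, edgeR). It thus had a higher mean in bulk KO colon while it was lower in KO nuclei. Grm8 was at most 0.763 CPM in any colon library.

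Summed RNA of muscle markers was also lower in the colon libraries labelled KO. The summed CPM of the 10 smooth muscle markers ran from 34652 to 46191 in the libraries labelled KO and from 50907 to 74009 in those labelled WT. In jejunum it was not lower in KO, running from 48594 to 93157 in KO and from 47552.5 to 52480 in WT. For 5 skeletal muscle markers it ran from 19.95 to 28.4 in KO and from 75.2 to 116 in WT colon, and from 40.6 to 93.0 and 115 to 128 in jejunum. All 13 mitochondrially encoded genes had a negative log2 fold change in colon, with a median of -1.63, and 1 passed. Of 19 contractile genes, 18 had a negative log2 fold change in colon, with a median of -0.78, and none passed the test. Myh11 stood at -0.66 (SE 0.31, edgeR adjusted p = 0.362). The part of these differences in the calls of Colec10, Pln and Casq2 was not tested.

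In jejunum no A gene passed the edgeR test. There 45 genes (0.215%) passed, of which 26 (0.124%) rose and 19 (0.091%) fell. Colec10 stood at 221, 234 and 210 CPM in WT and at 43.3, 90.3 and 79.1 in KO, without overlap, as for 2335 genes (11.2%) in that direction. The difference was -1.64 on the log2 scale (SE 0.31), with an edgeR adjusted p of 0.0629. Its WT level in jejunum, 221 ± 12.1 CPM, was far above that in colon, 12.7 ± 2.24 (SD, n = 3 each). Pln stood at 94.5, 70.2 and 78.3 against 48.4, 71.3 and 56.7 CPM, with overlap (-0.46, adjusted p = 0.654, edgeR). Casq2 gave 97.4 ± 22.2 and 46.1 ± 7.12 CPM (SD, n = 3; -1.08, adjusted p = 0.113, edgeR). Shisa6 gave 4.98 ± 0.31 and 0.64 ± 0.76 CPM (SD, n = 3; adjusted p = 0.127, edgeR). Nek10 again had the higher mean in KO, 3.39 ± 1.48 against 0.80 ± 0.33 CPM (SD, n = 3; adjusted p = 0.114, edgeR), without overlap, as for 2295 genes (11%) in that direction.

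The colon change differed from the jejunum change for no gene by edgeR (0%; 869 genes at an unadjusted p under 0.05; 37 by DESeq2). For Colec10, Pln and Casq2 the differences were -1.83 (SE 0.44), -2.46 (SE 0.57) and -2.38 (SE 0.36) on the log2 scale, with edgeR adjusted p of 0.937, 0.911 and 0.353. DESeq2 called 2 of the 3, Pln (adjusted p = 0.024) and Casq2 (2.8e-05).

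Among other genes named for the nuclei, Pdzrn4 was the one that passed in jejunum. It stood at 12.2, 13.6 and 13.5 CPM in WT and at 2.49, 3.74 and 4.07 in KO, a fall by 1.93 on the log2 scale (SE 0.32) at an edgeR adjusted p of 0.042, and it lost this call in 11 of 17 alternative fits. In colon it stood at 6.06 ± 0.78 and 2.06 ± 0.80 CPM (SD, n = 3; -1.55, adjusted p = 0.070, edgeR). Mylk stood at -1.23 (SE 0.30) in colon, Angpt1, a ligand of the receptor Tie2, at -1.76 (SE 0.45) and Cttnbp2 at -1.16 (SE 0.33), with edgeR adjusted p of 0.115, 0.127 and 0.151. In the 4 KO nuclei Angpt1 had stood the other way, at 5.77-fold (2.65 to 11.3) on 10 KO UMIs. Over all smooth muscle nuclei Angpt1 was lower in KO, at 0.39 (0.32 to 0.47). Within cluster 1 its interval held 1 (1.22, 0.93 to 1.59). Of the 11 tested genes among the 12 highest in the nuclei, none passed in either tissue.

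The B genes in bulk did not pass. Fn1 stood at 3784, 2790 and 4835 CPM in WT colon and at 6011, 18442 and 7701 in KO, without overlap, as for 1835 genes (8.79%) in that direction (log2 difference 1.49, SE 0.51, edgeR adjusted p = 0.216). It was above WT in all KO libraries of jejunum too, as for 2295 genes (11%) in that direction. The log2 difference there was 2.59 (SE 0.53, edgeR adjusted p = 0.0777). Postn, higher in KO smooth muscle nuclei, had a lower mean in KO colon, 508 ± 95.6 against 729 ± 52.3 CPM (SD, n = 3; adjusted p = 0.831, edgeR).

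**Figure D5:**
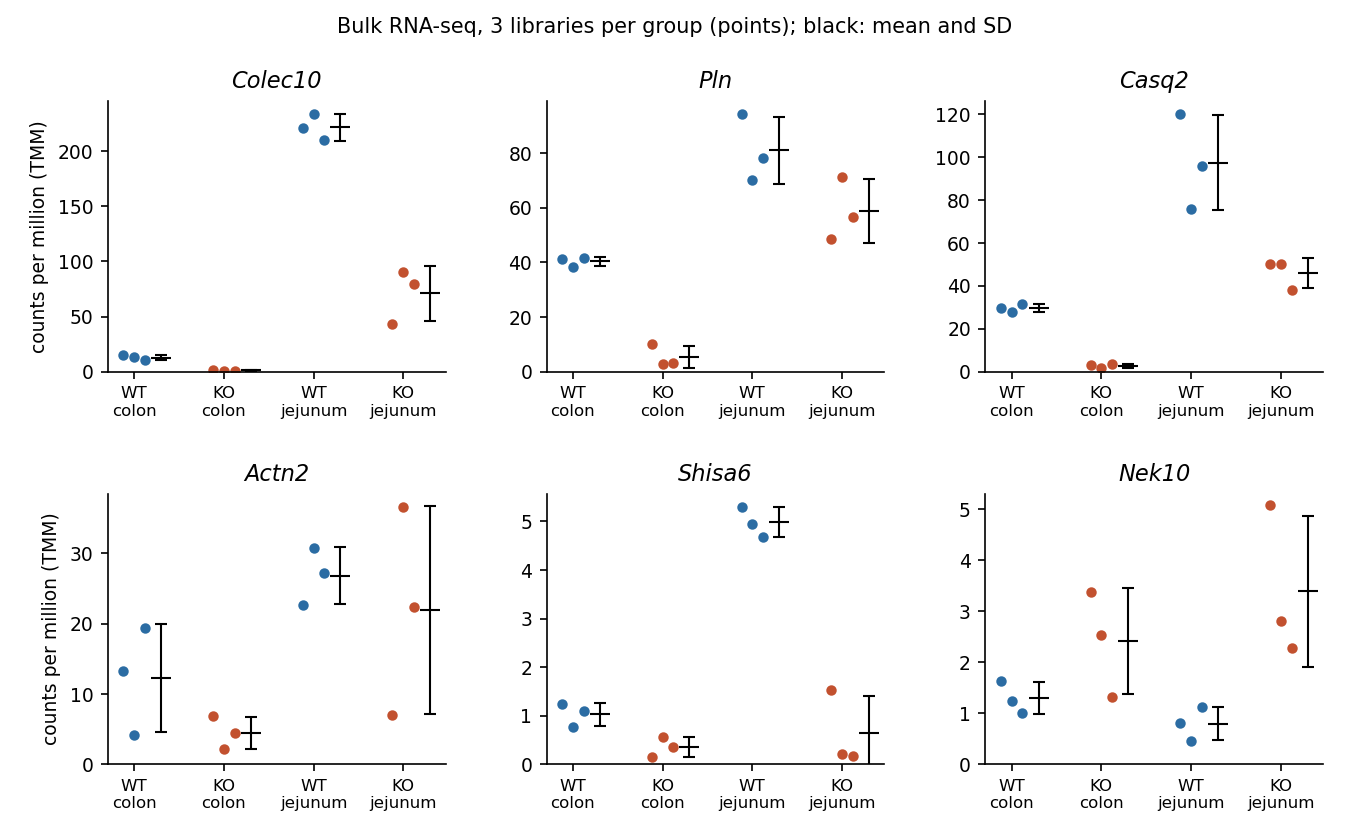
CPM in each bulk library (points) with the mean and SD of 3 (black), for 5 A genes and Casq2, linear axes from 0. In colon, the points labelled KO lie below those labelled WT for Colec10, Pln, Casq2 and Shisa6, as for 2166 genes (10.4%) over all tested. Nek10 lies higher in KO in jejunum, as for 2295 genes (11%).

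Open chromatin was read in the same nuclei, as counts in regions called by the authors in each library. In WT, a region within 1 kb of an annotated start was listed for Myh11, Mylk, Acta2 and Actg2, and none for any of the 5 A genes or for Casq2; that says nothing on whether the chromatin there was closed. At Myh11 (2 regions, chr16:14290736-14291935 and chr16:14292304-14293304), the WT Colec10/Nek10/Actn2/Pln nuclei had 42 counts, or 423 per 1000000 region counts (305 to 571). Other smooth muscle nuclei had 279 (243 to 319), and nuclei outside the gate 82.3 (69.5 to 96.7). The ratio to other smooth muscle was 1.51 (1.06 to 2.12). With a window of 500 bases it was 1.24 (0.74 to 2.01). Counts are cut sites, which come in pairs from a fragment, so these intervals are too narrow.

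At Acta2, smooth muscle alpha-actin, the members had 80.5 counts per 1000000, other smooth muscle 96.5 and nuclei outside the gate 18.5. Actg2 gave 121, 102 and 17.4, and Fn1 gave 121, 123 and 42.5. At Fn1, the ratio of members to other smooth muscle was 0.99 (0.49 to 1.80), on 12 and 94 counts, while its RNA stood at 0.37 by the rule. Carmn had 4 counts in the members (ratio 0.74, 0.19 to 2.03). Mylk had 0 counts in them, which allows up to 3. Over all 11065 regions with at least 30 counts, 981 (8.87%) were at least 2-fold higher and 1790 (16.2%) at least 2-fold lower in the members. In KO, the 4 members had 4734 region counts in all, too few for a comparison. The KO list held a region at the starts of Actn2 and Shisa6, from other nuclei, where the WT list held none.

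The 250 bases before the start of 3 genes are printed from RefSeq (build GRCm38.p6), 5′ to 3′ along the gene: Acta2, whose promoter lies in an open region of the members, and Casq2 and Pln, the reticulum genes that fell in bulk colon. Capitals mark matches to a CArG box, the site of serum response factor (CC, then 6 bases of A or T, then GG; its pattern reads the same on both strands), allowing 1 base other.
Acta2, chr19:34255374-34255623, reverse strand: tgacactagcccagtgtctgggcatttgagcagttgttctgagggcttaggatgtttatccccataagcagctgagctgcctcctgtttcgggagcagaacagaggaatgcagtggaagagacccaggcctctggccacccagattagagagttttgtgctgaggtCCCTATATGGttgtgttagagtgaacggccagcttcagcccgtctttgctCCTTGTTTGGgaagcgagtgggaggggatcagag
Casq2, chr3:102086165-102086414, forward strand: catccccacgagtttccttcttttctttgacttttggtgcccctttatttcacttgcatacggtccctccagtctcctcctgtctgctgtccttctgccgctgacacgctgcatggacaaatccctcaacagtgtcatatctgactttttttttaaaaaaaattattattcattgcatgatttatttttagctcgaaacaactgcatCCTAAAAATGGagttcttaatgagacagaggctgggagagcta
Pln, chr10:53337436-53337685, forward strand: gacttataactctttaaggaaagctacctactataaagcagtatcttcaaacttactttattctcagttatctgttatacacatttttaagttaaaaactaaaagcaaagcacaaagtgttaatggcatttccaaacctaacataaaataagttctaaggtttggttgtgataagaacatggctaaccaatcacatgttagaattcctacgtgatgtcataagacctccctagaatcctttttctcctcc

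Acta2 held 2 such near matches and Casq2 held 2 that overlap by all but 1 base each, whereas Pln held none in this window. A near match was found before 18.6% of the 32851 starts with a sequence and an exact box before 1.47%. Sequences were matched for 14 of the 20 rule genes, 3 of them A genes, and for some of the other genes named. Among their 39 starts, 6 held a near match and none an exact one. A match is a description of letters and not a site shown to be used.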

How the data were processed

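Nuclei of colonic muscularis were isolated by a 10x protocol and gave gene expression and open chromatin from 1 WT and 1 KO library, and total RNA of colon and jejunum muscularis gave 12 bulk libraries, per the labels' protocols. The deposited counts of bulk reads per gene were made by the authors, whose submitters' processing notes name STAR, Subread, featureCounts and edgeR with builds GRCm38 and mm10. The deposited counts of the nuclei came from Cell Ranger ARC 2.0.0, per the file headers. All gene values of the nuclei were even, so they were halved to UMIs; region counts were used as deposited.

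The 112 nuclei, their genes and all gene lists were chosen with earlier results of these data known. Counts of nuclei were summed per library and class, and ratios of CPM were given with exact 95% intervals. A gene was counted as higher or lower at 2-fold, with at least 50 UMIs in both sums. For ranking genes by ratio, a sum of 0 was set to 3 UMIs. The genes named were the 12 highest and the 6 lowest against other smooth muscle nuclei, the 10 highest and 10 lowest in KO, from each list the 2 members with most UMIs and those past 2-fold in KO, and in bulk the genes with the smallest adjusted p. Other list members, Grm8 and Kbtbd12 along A and genes within cluster 1 were named after their values were seen. Clusters came from scanpy 1.11.5 without the rule genes, Carmn and mitochondrial genes. Bulk counts were tested with edgeR 4.0.16 (quasi-likelihood, TMM, all 4 groups in 1 fit) and Benjamini-Hochberg adjustment, on scripts tested on simulated data. Alternatives were other limits of the rule, thinning, other normalization and filters, DESeq2 1.42.0, a replicate block in limma 3.58.1, the tissue alone and each library left out.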

Additional observations from a re-analysis of the deposited data

How the results depend on the processing

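Of the comparisons of nuclei, the counts of genes past 2-fold depended on the limits. Against other smooth muscle nuclei, 735 genes were lower with a smooth muscle minimum of 2 UMIs and 1258 without a limit on Kit, Pdgfra and Notch3. Thinned to 1000 UMIs, 51 were higher and 194 lower, and for KO against WT 30 and 85. With at least 100 UMIs these were 68 and 198, and 81 and 221; with at least 20 UMIs, 374 and 1168, and 538 and 1463. Chosen after seeing the data were WT and KO shares without a condition on B (15.6% and 8.14%), B without Fn1 and Postn (11.4% and 2.83%), cluster 1 alone (19 higher, 104 lower), all smooth muscle nuclei for KO against WT (607 and 232) and the set without its largest nucleus (68 higher).

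In bulk, DESeq2 called 960 genes in colon, 805 in jejunum and 37 for the difference. The 6 libraries of a tissue alone gave 0 in colon and 21 in jejunum. With the replicate block, fitted in limma and so with another method as well, 95 genes passed in colon and 76 in jejunum, and the Grm8 value in colon was -0.22; deviations of libraries with the same tag correlated between -0.163 and 0.100, so the tags were not taken to pair them. Leaving out 1 library gave 7 to 180 genes in colon, 2 to 172 in jejunum and 0 to 1 for the difference, and -0.88 to 0.11 for Actn2 in jejunum, positive without KO jejunum m1. The causes were not tested.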
